A study of Rattus norvegicus with 4 samples.

Results

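Basement membranes are thin sheets of extracellular matrix that underlie epithelia and blood vessels and wrap muscle, fat and nerve cells. A network of laminin trimers and a network of covalently crosslinked collagen IV form the sheet, and nidogens and the heparan sulfate proteoglycan perlecan bridge them. Marrow stromal cells make these proteins in culture, and perivascular stromal cells lie against such a membrane in vivo. Expression is described here for 10 genes chosen by name, with Entrez identifiers in parentheses: the collagen IV chains Col4a1 (290905) and Col4a2 (306628), the related collagens Col15a1 (298069) and Col18a1 (85251), the laminin chains Lama4 (309816), Lamb1 (298941) and Lamc1 (117036), the nidogens Nid1 (25494) and Nid2 (302248), and Hspg2 (313641), which encodes perlecan. These genes were chosen with earlier results of these data known, so shares over all genes stand beside them as description only. All 10 were found among the 34034 genes listed, and all 10 passed a minimum of 40 counts summed over the libraries, as did 12228 genes in all.

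The data are 3' tag RNA sequencing of mesenchymal stem cells from rat femurs, all kept in osteogenic induction medium and collected on day 1, with treatments of 24 h. The study had 4 groups of 1 library each. Young cells that received only vehicle are called the young control, and senescent cells that received only vehicle the senescent control. The TSA group was senescent cells given trichostatin A, which inhibits histone deacetylases, and the TSA + phenamil group was senescent cells given phenamil, an amiloride derivative, as well. No group received phenamil alone. The sample labels name phenamil, whereas the design text of the series names benzyl ether as the second agent, and the labels were followed. The labels give no rat strain, age or dose, and do not say how the cells became senescent.

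Total counts ran from 9873894 in the TSA library to 11024227 in the senescent control. Levels are CPM, counts per 1000000 of the scaled library total, and ratios of scaled counts are followed in parentheses by 95% exact counting intervals. Since each group is a single library, there is no spread between replicates and no p-value. The intervals cover counting error only, and each ratio describes 2 libraries rather than 2 conditions. A gene was called higher or lower when its level was at least 25% above or 20% below that of the other library and its interval excluded no change. Among the 7385 genes with at least 501 counts, the total of the least counted member, the TSA library stood apart from all 3 others by that threshold for 370 genes. The same count was 269 for the young control, 140 for TSA + phenamil and 96 for the senescent control. Differences that involve the TSA library therefore rest on the library that differed most from the rest. All 10 fixed markers of mesenchymal stromal cells had enough counts to be compared, Thy1 among them at 753 to 803 CPM, although Eng (CD105) had only 18 to 23 counts per library.

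Several markers of endothelial, Schwann, fat, epithelial and blood cells were at or near 0, while others on the same lists were not. Of 11 endothelial markers, Pecam1, Vwf, Emcn and Cldn5 had 0 counts in every library, where a count of 0 leaves room for 0.270 to 0.303 CPM, and Cdh5 had at most 1 count. The summed endothelial level was 30.3 CPM in the young control, 19.6 CPM in the senescent control, 22.9 CPM with TSA and 20.8 CPM with TSA + phenamil, and came almost wholly from Egfl7. Egfl7, the 1 endothelial marker with enough counts, was called lower than young in all 3 senescent libraries, at 0.641 (0.533 to 0.768) in the senescent control. Of 6 Schwann cell markers, Sox10 and Cdh19 were at 0, and the summed level of 275 to 345 CPM came almost wholly from S100b. Of 6 adipocyte markers, Cidec and Lep were at 0 in a sum of 3.64 to 5.31 CPM that was mostly Lpl, at 35 to 59 counts. Of 7 epithelial markers, Cldn4 and Esrp1 were at 0 in a sum of 9.44 to 20.1 CPM that was nearly all Krt8. Of 8 blood and macrophage markers Aif1 and Lyz2 were at 0 in a sum of 5.22 to 10.7 CPM. Most of that sum was Cd14, at 57 to 85 counts. It was called higher with TSA than in either control, and with TSA + phenamil than in the young control. The 6 chondrocyte markers summed to 1646 to 1753 CPM, of which Col9a1 made up 1145 to 1209 CPM. Of the 5 with enough counts, 2 were called higher and none lower in senescent against young cells. Over all genes tested these shares were 9.63% and 9.27%. Sox9 had 435, 619, 491 and 482 counts in the young control, the senescent control, TSA and TSA + phenamil, and Comp 10, 34, 20 and 13.

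Among markers of pericytes and smooth muscle, several were lowest in the TSA library, as were all members but Lamb1 and Nid2, and others were not. None of these 9 markers was at 0 in every library, although Rgs5, a defining pericyte gene, had 0 counts in 3 libraries and 3 in the senescent control. Their sum was 5458 CPM in the young control, 4752 CPM in the senescent control, 3298 CPM with TSA and 5332 CPM with TSA + phenamil. Most of that sum was Acta2, which encodes alpha smooth muscle actin. Its level was 5191 CPM in the young control and 3077 CPM with TSA. Of the 7 with enough counts, 2 were called lower and none higher in the senescent against the young control, and 5 lower and none higher with TSA against the senescent control. With TSA + phenamil against the senescent control 2 were called higher and 1 lower, and against TSA 5 higher and 1 lower. Over all genes tested, 9.63% were called higher and 9.27% lower in the first of these comparisons, and 8.22% and 7.97% in the second. The third had 8.58% and 8.22%, and the fourth 9.93% and 9.3%. Cspg4, the pericyte proteoglycan NG2, ran the other way, at 63.7, 75.9, 81.04 and 54.1 CPM in the young control, the senescent control, TSA and TSA + phenamil. Mcam (CD146) was lowest in the young control, at 61.9, 71.9, 76.3 and 77.5 CPM in that order. The part of such cells in the results below was not tested, and fewer cells of a type and less RNA per cell cannot be told apart in bulk libraries.

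Col4a1 and Col4a2 lie head to head on rat chromosome 16 and are transcribed away from each other. In RefSeq, on the build GRCr8, their annotated starts were 77 bases apart, and 2.07% of 16845 genes on the plus strand had a start of the opposite strand at most that far behind theirs. The 76 bases between the starts, chr16:84885521-84885596 on the plus strand, are shown because a single short stretch precedes both genes. They are 78.9% G and C and hold 13 CpG dinucleotides. Sequences before the starts of 3 other members follow, for comparison of genes with like and unlike levels across the libraries: Nid1 (chr17:93069036-93069285, plus strand), Lama4 (chr20:43946648-43946897, plus strand) and Hspg2 (chr5:154960596-154960845, plus strand), each 250 bases. Capitals mark matches on either strand to 4 motifs: CCAAT as the CCAAT box, GGGCGG as the GC box, TATAAA as the TATA box and TGANTCA as the AP-1 site.
Col4a2-Col4a1 interval: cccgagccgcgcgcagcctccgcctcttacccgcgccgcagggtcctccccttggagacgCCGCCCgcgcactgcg
Nid1: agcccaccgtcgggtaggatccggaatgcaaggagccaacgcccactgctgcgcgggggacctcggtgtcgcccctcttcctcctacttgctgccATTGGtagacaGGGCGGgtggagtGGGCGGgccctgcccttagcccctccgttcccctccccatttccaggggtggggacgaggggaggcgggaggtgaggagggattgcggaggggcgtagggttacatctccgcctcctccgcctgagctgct
Lama4: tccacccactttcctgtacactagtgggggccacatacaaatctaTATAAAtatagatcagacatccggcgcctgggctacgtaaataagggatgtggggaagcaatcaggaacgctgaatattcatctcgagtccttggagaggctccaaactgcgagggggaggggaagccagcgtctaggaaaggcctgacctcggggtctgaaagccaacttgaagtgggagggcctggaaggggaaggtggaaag
Hspg2: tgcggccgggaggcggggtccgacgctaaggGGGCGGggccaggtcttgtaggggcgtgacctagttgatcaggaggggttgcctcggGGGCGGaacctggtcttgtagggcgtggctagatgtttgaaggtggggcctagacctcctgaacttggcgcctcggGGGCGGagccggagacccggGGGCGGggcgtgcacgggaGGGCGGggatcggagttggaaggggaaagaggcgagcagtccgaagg

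In the 76-base collagen IV interval 1 GC box was found, and none of the other 3 motifs. The full 250 bases before each start, which run past the interval into the neighbouring gene, held 1 CCAAT box and 1 GC box for Col4a1 and 1 CCAAT box and 2 GC boxes for Col4a2. Before the Hspg2 start 5 GC boxes were found, and before the Nid1 start 2 GC boxes and 1 CCAAT box. The stretch before Lama4 held 1 TATAAA match, no GC box and 53.2% G and C. Over 250 bases before the starts of 33469 RefSeq genes, 34.0% held CCAAT, 30.5% GGGCGG, 12.9% TATAAA and 6.34% TGANTCA, and the median G and C content was 51.2%. These matches are descriptions of the letters and not of factor binding. Of the 10 members, 9 matched an entry in the promoter table.

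Collagen IV, the covalent scaffold of the sheet, was lower in both the senescent control and the TSA library than in the young control. Col4a1, the gene of the alpha1 chain, was at 199.99 CPM in the young control, 156 CPM in the senescent control, 127 CPM with TSA and 188 CPM with TSA + phenamil. All neighbouring libraries in that order of levels were apart by their counting intervals, although the young control was only 1.06 (1.002 to 1.13) times the TSA + phenamil level. Col4a2, the gene of the alpha2 chain, was at 120.1 CPM in the young control, 88.9 CPM in the senescent control, 83.97 CPM with TSA and 139 CPM with TSA + phenamil. Its highest level was thus with TSA + phenamil, at 1.16 (1.08 to 1.2497) times the young control, and the pair at the bottom, senescent control and TSA, did not differ beyond counting error.

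The neighbouring genes did not keep the same ratio in every library. Col4a1 made up 62.5% (exact binomial interval 60.9 to 64.1) of the counts of the pair in the young control, 63.8% (61.9 to 65.6) in the senescent control, 60.1% (58.0 to 62.3) with TSA and 57.4% (55.7 to 59.1) with TSA + phenamil. The interval of the TSA + phenamil library lay below those of both untreated libraries. Such a share is taken within a library and does not depend on the scaling between libraries. Of the minor collagen IV chains, Col4a5 had 240 counts in young cells, 236 in untreated senescent cells, 231 with TSA and 219 with both agents. None of its 6 pairwise ratios was called, and they ran from 0.894 to 1.09. Col4a3, Col4a4 and Col4a6 had at most 7 counts in any library.

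**Figure D1:**
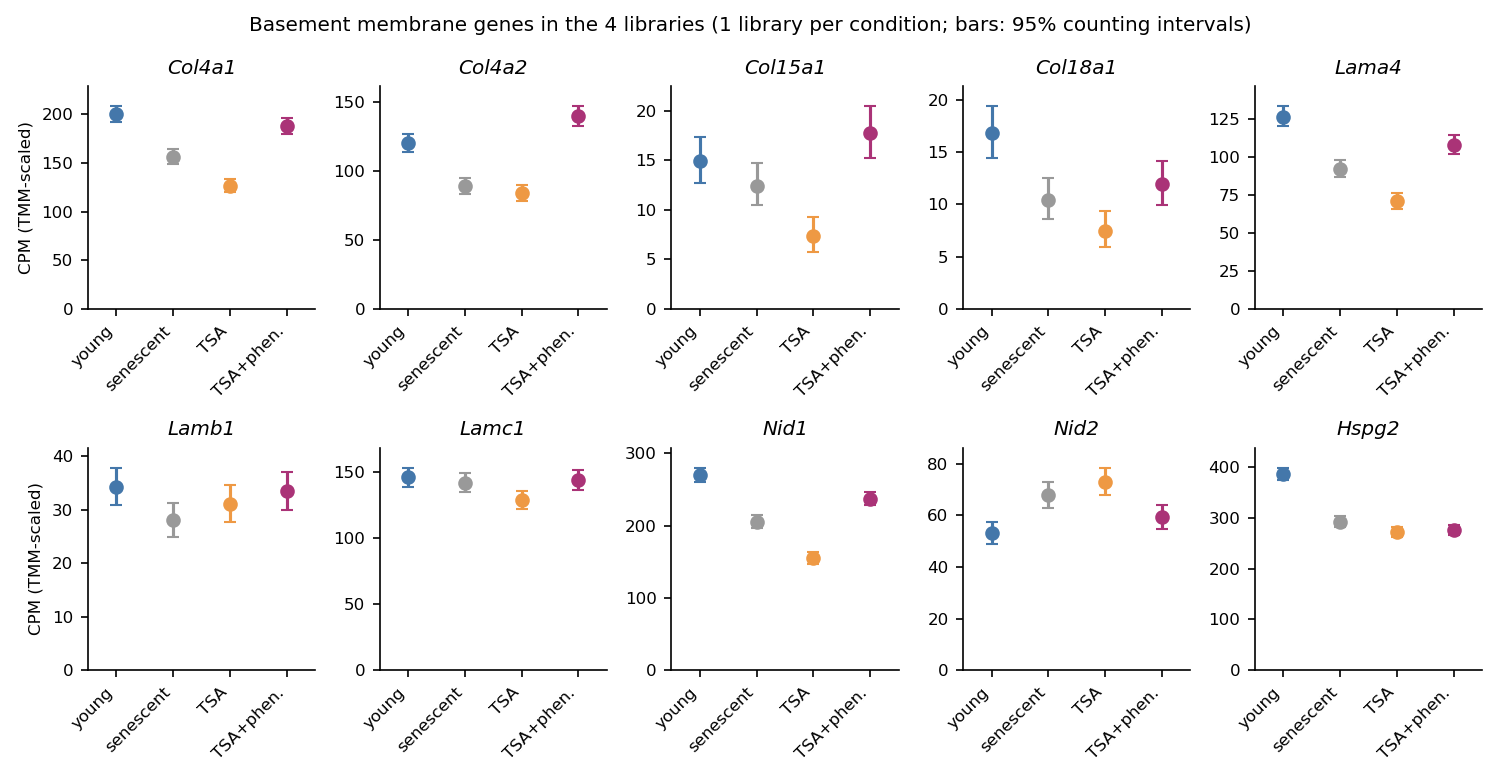
Levels of the 10 genes in CPM after TMM scaling (vertical axes, each starting at 0) in the 4 libraries (horizontal axes); points are the single library per condition and bars are 95% counting intervals. Col4a1, Col18a1, Lama4 and Nid1 are highest in the young control and lowest with TSA, Nid2 runs the other way, from 53.1 CPM in the young control to 72.9 CPM with TSA, and Hspg2 stays at 271 to 292 CPM in all 3 senescent libraries.

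Col15a1 and Col18a1 encode the multiplexin collagens, whose C-terminal fragments are restin and endostatin, and which link basement membranes to the matrix beneath. Both were sparse, at 73 to 187 counts per library. Col15a1 was at 14.9 CPM in the young control, 12.4 CPM in the senescent control, 7.38 CPM with TSA and 17.7 CPM with TSA + phenamil. Its TSA library stood below the other 3. Those did not differ from their neighbours in level beyond counting error, although TSA + phenamil was 1.43 (1.14 to 1.79) times the senescent control. Col18a1 was at 16.8 CPM in the young control, 10.4 CPM in the senescent control, 7.48 CPM with TSA and 11.9 CPM with TSA + phenamil. Its young control stood above the other 3 libraries, by 1.41 (1.12 to 1.79) times over TSA + phenamil. Col18a1 is known to be transcribed from alternative starts, which 3' tags cannot tell apart.

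Laminins are trimers of an alpha, a beta and a gamma chain, and the alpha chain sets which cell receptors bind. Lama4, the gene of the alpha4 chain found in mesenchymal and vascular laminins, was at 126.7 CPM in the young control, 92.1 CPM in the senescent control, 71.1 CPM with TSA and 108 CPM with TSA + phenamil. Every neighbouring pair in this order of levels was apart. Lamc1, the gene of the common gamma chain, was at 146, 142, 129 and 144 CPM in the same order of libraries. The lowest, TSA, was apart from its neighbour, the senescent control, which stood at 1.102 (1.02 to 1.19) times its level, and no other neighbours were apart. Lamb1, the gene of the beta1 chain, was at 34.3, 28.0, 31.0 and 33.4 CPM, and no neighbouring levels were apart. Its young control exceeded its senescent control by 1.22 (1.05 to 1.42) times.

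The 3 laminin chains did not keep the same proportions. Lama4 made up 46.4% (44.6 to 48.2) of the counts of Lama4 and Lamc1 in the young control. That share was 39.3% (37.4 to 41.2) in the senescent control, 35.6% (33.4 to 37.7) with TSA and 42.9% (40.96 to 44.8) with TSA + phenamil. Of all 5 laminin alpha chains, Lama4 took 90.7% (89.1 to 92.1) of counts in the young control, 86.7% (84.6 to 88.6) in the senescent control, 80.2% (77.4 to 82.8) with TSA and 86.8% (84.9 to 88.6) with TSA + phenamil. Lama3, the alpha chain of the epithelial trimer laminin-332, made up most of the remainder, with 80, 126, 140 and 120 counts in those libraries. Lamb1 took only 12.4% to 13.9% of the beta chain counts, since Lamb2 had 1976 to 2416 counts per library. A 3' tag kit reads about 1 tag per transcript end, so counts were not divided by transcript length. Priming and the annotation of transcript ends can still differ between genes, and shares are best compared between libraries.

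**Figure D2:**
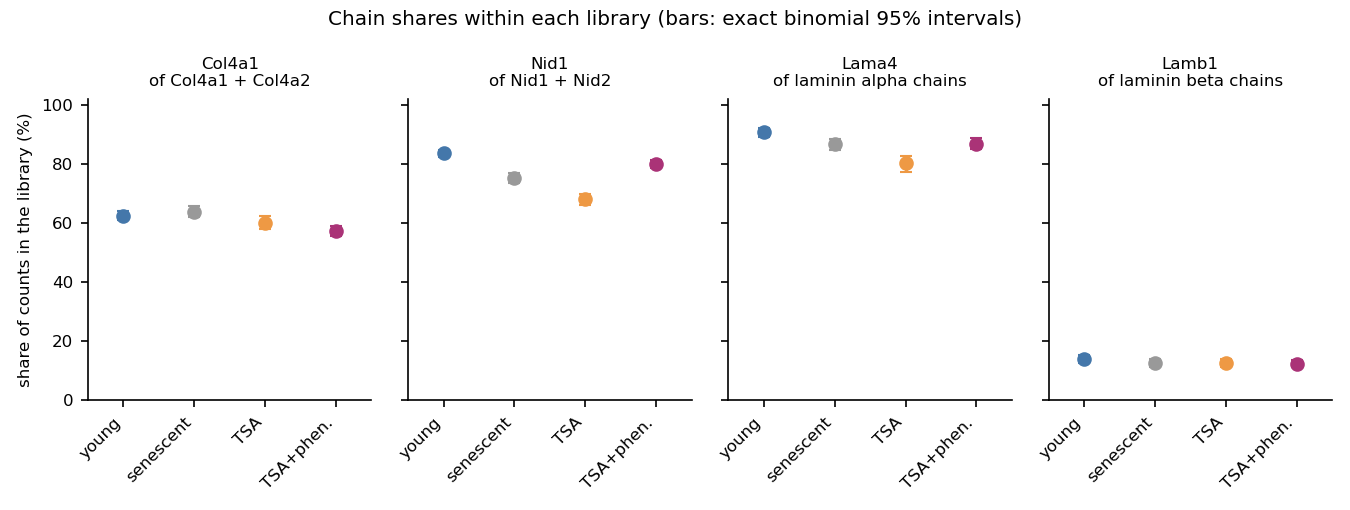
Share of counts (vertical axes, percent) of 1 chain among the chains of its family within each library (horizontal axes), with exact binomial 95% intervals. The share of Nid1 is 83.6% in the young control, 68.0% with TSA and 80.0% with TSA + phenamil, the share of Lama4 among alpha chains follows the same order, and the share of Lamb1 stays within 12.4% to 13.9%.

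Nidogens are the glycoproteins that connect laminin to collagen IV. Nid1 was at 270.1 CPM in the young control, 206 CPM in the senescent control, 155 CPM with TSA and 237 CPM with TSA + phenamil, and every neighbouring pair was apart. Nid2, which encodes a nidogen with overlapping binding partners, was the only member with its highest level in the TSA library. It was at 53.1 CPM in the young control, 67.7 CPM in the senescent control, 72.9 CPM with TSA and 59.3 CPM with TSA + phenamil. Nid1 made up 83.6% (82.3 to 84.8) of nidogen counts in the young control, 75.2% (73.6 to 76.8) in the senescent control, 68.0% (66.0 to 69.9) with TSA and 80.0% (78.6 to 81.4) with TSA + phenamil. The 4 intervals did not overlap, and this was the widest spread among the shares computed within the collagen IV, nidogen, multiplexin and laminin families.

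Perlecan, encoded by Hspg2, carries heparan sulfate chains that bind growth factors and anchors laminin and nidogen. Hspg2 was at 386 CPM in the young control, 292 CPM in the senescent control, 271 CPM with TSA and 276 CPM with TSA + phenamil. The young control was 1.32 (1.26 to 1.39) times the next level, the senescent control. The TSA and TSA + phenamil libraries did not differ beyond counting error, at 1.02 (0.966 to 1.07). Hspg2 was thus lower than young in every senescent library, whether untreated, given TSA or given TSA + phenamil.

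The first comparison set the senescent control against the young control. Of the 10 members, 6 were called lower, 1 higher and 3 neither. Over all genes tested 9.27% were called lower and 9.63% higher, and among genes with at least 501 counts 6.93% and 7.66%. The members' median log2 ratio was -0.37, beside 0.01 over all genes tested. Called lower were Col18a1 at 0.621 (0.488 to 0.787), Lama4 at 0.727 (0.670 to 0.789), Col4a2 at 0.740 (0.680 to 0.804), Hspg2 at 0.756 (0.722 to 0.791), Nid1 at 0.761 (0.720 to 0.804) and Col4a1 at 0.782 (0.734 to 0.834). Nid2 was called higher at 1.28 (1.14 to 1.42). Lamc1 was at 0.972 (0.906 to 1.04), Lamb1 at 0.819 (0.702 to 0.954) and Col15a1 at 0.833 (0.659 to 1.05). The standard deviation of log2 ratios over the 7385 genes was 0.23, and all members but Col18a1 lay within 2 of these standard deviations of 0.

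The second comparison set TSA against the senescent control, a library that the first 3 comparisons share. Here 4 members were called lower, none higher and 6 neither, beside 7.97% lower and 8.22% higher over all genes tested, and 6.88% and 6.39% among genes with at least 501 counts. The median log2 ratio was -0.22, beside 0.001 over all genes tested. The 4 were Col15a1 at 0.593 (0.440 to 0.794), Col18a1 at 0.716 (0.528 to 0.968), Nid1 at 0.753 (0.706 to 0.804) and Lama4 at 0.772 (0.700 to 0.851). Col4a1 was just short of the fold, at 0.810 (0.752 to 0.871), while Col4a2 was at 0.945 (0.860 to 1.04). Hspg2 was at 0.929 (0.882 to 0.978), Lamc1 at 0.907 (0.842 to 0.977), Nid2 at 1.08 (0.970 to 1.19) and Lamb1 at 1.11 (0.941 to 1.30).

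**Figure D3:**
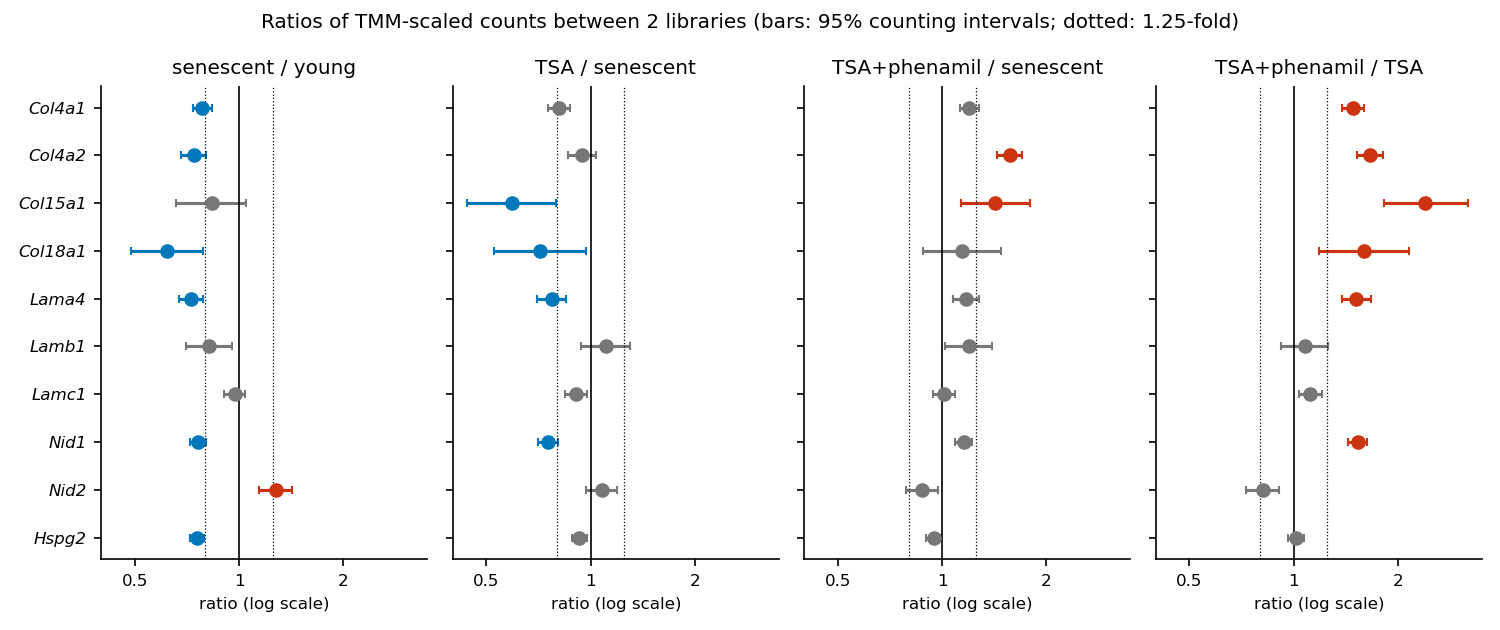
Ratio of scaled counts between 2 libraries (horizontal axes, log scale) for each gene in 4 comparisons, with 95% counting intervals; blue points were called lower, red points higher and grey points neither, and dotted lines mark the thresholds. In senescent against young 6 points are blue and 1 red, in TSA against senescent 4 are blue, and in TSA + phenamil against TSA 6 are red.

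In the third comparison, TSA + phenamil against the senescent control, 2 members were called higher, none lower and 8 neither. Over all genes tested 8.58% were called higher and 8.22% lower, and among genes with at least 501 counts 6.59% and 7.08%. The median log2 ratio was 0.22, beside 0.001 over all genes tested. Called higher were Col4a2 at 1.57 (1.44 to 1.701), a ratio above that of 99.5% of the 7385 genes, and Col15a1 at 1.43 (1.14 to 1.79). Col4a1 was at 1.2001 (1.12 to 1.28), Lamb1 at 1.19 (1.02 to 1.39), Lama4 at 1.17 (1.08 to 1.28), Nid1 at 1.15 (1.09 to 1.22) and Col18a1 at 1.14 (0.879 to 1.48). Lamc1 at 1.01 (0.944 to 1.09), Hspg2 at 0.946 (0.899 to 0.995) and Nid2 at 0.875 (0.786 to 0.975) stood close to or below the senescent control.

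The fourth comparison, TSA + phenamil against TSA, compares libraries whose labels differ in phenamil alone. It shares the TSA library with the second comparison and the TSA + phenamil library with the third. In it 6 members were called higher, none lower and 4 neither, beside 9.93% higher and 9.3% lower over all genes tested, and 9.32% and 8.8% among genes with at least 501 counts. The median log2 ratio was 0.58, beside -0.002 over all genes tested. The widest ratio was that of Col15a1 at 2.402 (1.82 to 3.19), from 73 and 186 counts. Col4a2 followed at 1.66 (1.52 to 1.81), then Col18a1 at 1.59 (1.19 to 2.15), Nid1 at 1.53 (1.44 to 1.63), Lama4 at 1.52 (1.38 to 1.67) and Col4a1 at 1.48 (1.38 to 1.59). Lamc1 was at 1.12 (1.04 to 1.205), Lamb1 at 1.08 (0.922 to 1.26), Hspg2 at 1.02 (0.966 to 1.07) and Nid2 at 0.813 (0.730 to 0.907). Of the 7 pericyte and smooth muscle markers compared above, 5 were called higher in this comparison, while Cspg4 was called lower at 0.668 (0.599 to 0.744).

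Set against the young control, which also enters the first comparison, the TSA library had 7 members called lower, 1 higher and 2 neither. The background there was 13.7% lower and 13.5% higher over all genes tested, the widest of the 6 pairs of libraries, and 13.5% and 13.8% among genes with at least 501 counts. Col18a1 was at 0.445 (0.335 to 0.585), Col15a1 at 0.494 (0.370 to 0.655), Lama4 at 0.561 (0.512 to 0.615) and Nid1 at 0.573 (0.539 to 0.610), while Nid2 was called higher at 1.37 (1.23 to 1.53). In TSA + phenamil against the young control 2 members were called lower, none higher and 8 neither, beside 8.21% lower and 8.69% higher over all genes tested, and 6.43% and 7.37% among genes with at least 501 counts. The 2 were Col18a1 at 0.708 (0.560 to 0.893) and Hspg2 at 0.715 (0.682 to 0.7496). The counts of all 10 members together came to 1369 CPM in the young control, 1096 CPM in the senescent control, 956 CPM with TSA and 1215 CPM with TSA + phenamil.

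Other basement membrane genes were taken from lists of related genes. Of 7 other laminin chains analysed, 5 had enough counts, and in senescent against young cells 2 were called higher and 1 lower, beside 9.63% and 9.27% over all genes tested. Lamb3, the beta chain of laminin-332, was at 2.13 (1.53 to 3.003) and Lama3 at 1.59 (1.19 to 2.13). Lama2, the alpha chain of muscle and nerve laminins, was at 0.367 (0.193 to 0.663) from 44 and 16 counts. Lamb3 was also called higher with TSA, at 1.69 (1.33 to 2.16) times the senescent control, and lower in TSA + phenamil against TSA, at 0.338 (0.249 to 0.454). With TSA + phenamil against the senescent control 2 chains were called higher and 1 lower, beside 8.58% and 8.22% over all genes tested. Called higher were Lama5 at 2.40 (1.24 to 4.87), from 32 and 14 counts, and Lamb2 at 1.252 (1.18 to 1.33). Lamb3 was the chain called lower, at 0.571 (0.412 to 0.785). Lamb3 thus took the order of Nid2 across the libraries, with 54, 114, 173 and 62 counts. The epithelial keratin gene Krt8, the 1 epithelial marker with enough counts, took that order too, with 105, 170, 199 and 121 counts, while Epcam and Cdh1 had at most 2 counts in any library. The part of epithelial cells in the laminin-332 values was not tested. Lama1 and Lamc3 had 0 counts in all 4 libraries. The 5 had median log2 ratios of -0.17, 0.31, 0.32 and 0.21 in the 4 main comparisons, in their order above, and over all genes tested these medians were within 0.01 of 0.

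Of 25 other components of basement membranes and the adjoining matrix, 19 had enough counts. In senescent against young cells 2 were called higher and 4 lower, with TSA against the senescent control none higher and 7 lower, with TSA + phenamil against the senescent control 7 higher and 2 lower, and with TSA + phenamil against TSA 9 higher and 1 lower. Over all genes tested the shares called higher and lower were 9.63% and 9.27% in the first of these comparisons, 8.22% and 7.97% in the second, 8.58% and 8.22% in the third and 9.93% and 9.3% in the fourth. The components' median log2 ratios were -0.14, -0.26, 0.14 and 0.34. Hmcn1, which encodes the matrix protein hemicentin, was at 91.4 CPM in the young control, 49.6 CPM in the senescent control, 31.7 CPM with TSA and 73.9 CPM with TSA + phenamil. Fbln2, the gene of the nidogen-binding protein fibulin-2, was at 0.608 (0.582 to 0.634) with TSA against the senescent control and at 1.81 (1.74 to 1.89) with TSA + phenamil against TSA. Smoc1 and Smoc2, which encode related calcium-binding proteins of basement membranes, differed in direction: with TSA + phenamil against the senescent control Smoc1 was at 1.67 (1.36 to 2.06) and Smoc2 at 0.561 (0.485 to 0.646). Col6a3, a chain of the beaded filaments that adjoin basement membranes, was at 0.779 (0.749 to 0.809) in senescent against young cells and at 1.34 (1.29 to 1.39) with TSA + phenamil against the senescent control.

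Of 13 receptors for laminin and collagen IV with enough counts, 1 was called higher and 1 lower in senescent against young cells. Over all genes tested these shares were 9.63% and 9.27%. With TSA against the senescent control 2 receptors were called lower and none higher. With TSA + phenamil against the senescent control 5 were called lower and none higher, and with TSA + phenamil against TSA 2 lower and none higher. Over all genes tested 7.97%, 8.22% and 9.3% were called lower in these 3 comparisons, so the counts of 2 lay within 1 gene of the background. The median log2 ratios were 0.03, -0.16, -0.21 and -0.12. Itga7, the laminin-binding integrin subunit of muscle, was at 1.51 (1.16 to 1.98) in senescent against young cells and at 0.488 (0.359 to 0.658) with TSA + phenamil against the senescent control. The collagen-binding subunits Itga10 at 0.283 (0.104 to 0.669) and Itga2 at 0.339 (0.148 to 0.709) were also lower in the last comparison. Both were sparse in the young control, the senescent control, TSA and TSA + phenamil. Itga10 had 16, 26, 9 and 7 counts in that order and Itga2 had 17, 31, 11 and 10, so both were already low with TSA. The receptor subunit Itgb1 was called in none of the 4 main comparisons.

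Of 19 genes with enough counts that fold, export and crosslink collagen IV, 1 was called higher in senescent against young cells, 1 higher and 1 lower with TSA against the senescent control, 1 lower with TSA + phenamil against the senescent control, and 3 higher with TSA + phenamil against TSA. The 3 stood beside 9.93% called higher over all genes tested, and the other counts beside 7.97% to 9.63%. The medians lay between -0.03 and 0.01. Pxdn, which encodes the peroxidase that forms the sulfilimine crosslinks of collagen IV, was at 0.782 (0.732 to 0.836) with TSA against the senescent control and at 1.31 (1.23 to 1.402) with TSA + phenamil against TSA. Serpinh1, the collagen chaperone HSP47, was at 1.254 (1.23 to 1.28) in the latter pair. P4ha3, a prolyl hydroxylase subunit, was called higher in senescent against young cells at 1.395 (1.251 to 1.56).

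Of 18 heparan sulfate genes, whose products build or trim the chains of perlecan, 1 was called higher and 2 lower in senescent against young cells, 1 higher and 2 lower with TSA, 1 lower with TSA + phenamil against the senescent control, and 3 higher and 2 lower with TSA + phenamil against TSA. Over all genes tested 7.97% to 9.93% were called in each direction in these comparisons. Medians ran from -0.13 in senescent against young cells to 0.04 in TSA + phenamil against TSA. Hpse, the gene of heparanase, which cleaves these chains, was at 1.33 (1.18 to 1.497) in senescent against young cells, and at 0.744 (0.659 to 0.839) with TSA + phenamil against the senescent control. Hs6st1, a 6-O-sulfotransferase gene, was at 0.799 (0.748 to 0.854) in senescent against young cells. Of 16 protease and inhibitor genes that act on basement membranes, none was called higher and 2 lower in senescent against young cells. In the comparisons of TSA and of TSA + phenamil with the senescent control 1 was called higher and 1 lower each, and in TSA + phenamil against TSA 2 higher and 3 lower. Over all genes tested the shares called were again 7.97% to 9.93% in each direction. The medians of the 16 genes lay between -0.07 and 0.07. Mmp9, a collagen IV degrading protease, was at 0.661 (0.4999 to 0.869) in the first comparison.

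**Figure D4:**
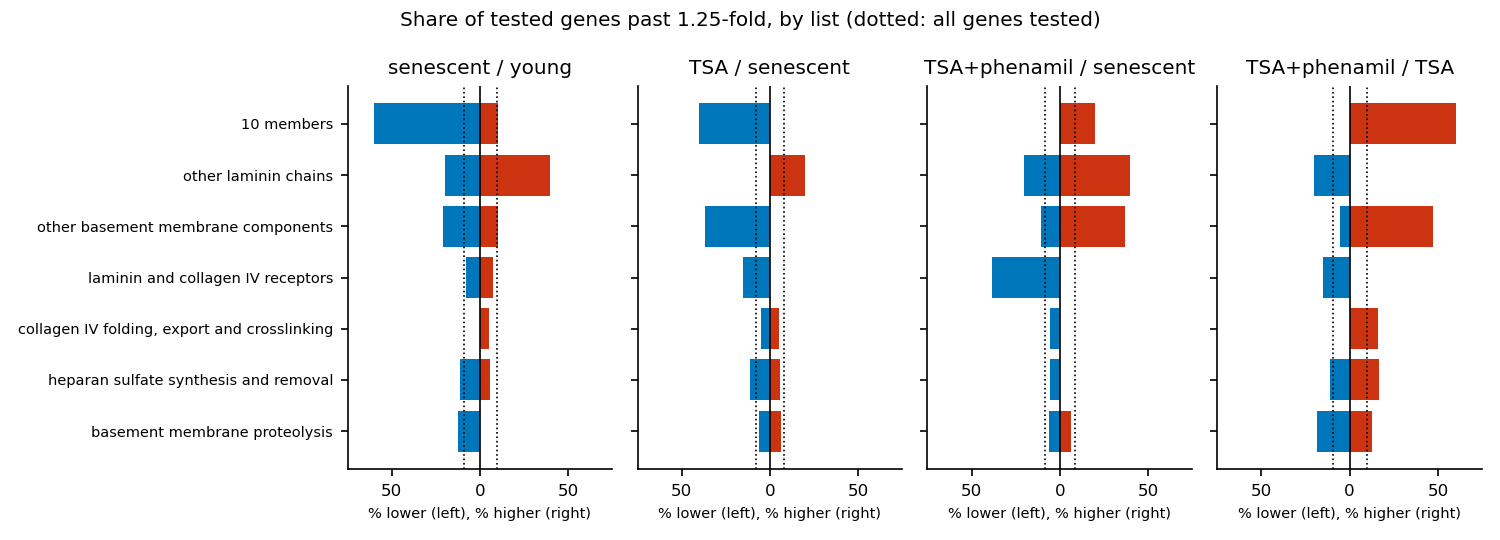
Percent of the genes tested in each list that were called lower (blue, to the left of 0) or higher (red, to the right) in 4 comparisons; dotted lines are the percent over all genes tested. The 10 members reach 60% lower in senescent against young and 60% higher in TSA + phenamil against TSA, and the lists of folding, heparan sulfate and protease genes lie nearer to the dotted lines.

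The genes with the pattern most like collagen IV were sought among 8046 genes with at least 400 counts, by the root mean square difference between log2 levels centred over the 4 libraries. The reference pattern was that of the summed Col4a1 and Col4a2 counts, at 320.1 CPM in the young control, 245 CPM in the senescent control, 211 CPM with TSA and 327 CPM with TSA + phenamil. Nearest were the long noncoding RNA LOC120100862 at a difference of 0.013, Podnl1 at 0.026, Creb5 at 0.030, Col3a1 at 0.032 and Rasal2 at 0.038 log2 units. Podnl1 encodes a small leucine-rich repeat protein of the matrix, Creb5 a transcription factor of the CREB family, Col3a1 the fibrillar collagen III and Rasal2 a Ras GTPase-activating protein. Among the other members Nid1 was the nearest at 0.102 and rank 135, followed by Lama4 at 0.107 and rank 163. Nid2 was the farthest, at 0.435 and rank 7445. With 4 libraries such likeness is a description, and many genes lie close to any pattern.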

How the data were processed

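One library per condition was available. The build mRatBN7.2 and the tools STAR (2.7.10b) and HTSeq (2.0.2) are named per the submitters' processing notes, without their order. Annotation, strand setting and duplicate handling: not given in the sources used here. Per the labels' protocols, libraries were QuantSeq 3' FWD, single-end 100 bp. The deposited counts are raw whole numbers per gene, per the file headers. The deposited log2 values were normalized by the authors, per the file headers, and equalled log2 of 1 plus the count over 1 factor per library within 0.000532.

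Counts were scaled by TMM (edgeR 4.0.16, R 4.3.3). No residual degrees of freedom remain for a quasi-likelihood test. Intervals at 95% were exact: conditional binomial (Clopper-Pearson) for ratios, Poisson for levels and binomial for shares (scipy 1.17.1, Python 3.11.15). Log2 ratios used a prior count of 0.5. PCR reads without molecular identifiers are not separate molecules, so intervals and the limit of 3 counts behind a count of 0 cover counting error only. The rule was run on simulated Poisson counts with known fold changes. These hold no PCR duplicates and no variation between replicate libraries, so the run says nothing about either. On GRCr8, a different build, RefSeq spans of noncoding genes or pseudogenes overlapped 5 members; those listed in the counts had at most 4 counts per library.

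Named were all members, up to 3 called genes per list, comparison and direction, ranked by the interval bound nearest no change, genes at or near 0, and the 5 genes nearest in pattern. Col4a5, Lamb2, Itgb1 and marker genes were named after their values were seen. Members and lists were chosen with earlier results of these data known. One gene of the laminin list is not reported here, and the counts for that list leave it out. Tried as alternatives were total counts, DESeq2 (1.42.0) size factors, TMM without mitochondrially encoded and ribosomal protein genes, other count filters, folds and prior counts, and the deposited log2 values.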

Additional observations from a re-analysis of the deposited data

How the results depend on the processing

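Among the alternatives of scaling, prior count and the deposited log2 values, all 60 ratios of the 10 members in 6 comparisons stayed within their counting intervals, and none of the called ratios changed sign. The deposited log2 values moved a ratio by at most 0.093 on the log2 scale, and total counts by at most 0.059. The 6 medians likewise stayed within the counting range, from 0.55 to 0.59 for TSA + phenamil against TSA and from -0.403 to -0.37 for senescent against young control. No count filter or a filter of 200 counts left every count of called members as it was.

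The counts depended on the fold, by construction of the rule. In TSA + phenamil against TSA 5 members were still called higher at 1.5-fold (4.9% of all genes tested). In TSA against young control 5 were still called lower at that fold (6.59%). At 1.5-fold, senescent against young control had 0 members higher and 1 lower (4.56% and 4.85% of all genes tested), TSA against senescent control 1 lower (3.73%), TSA + phenamil against senescent control 1 higher (4.11%), TSA against young control 0 higher (5.94%), and TSA + phenamil against young control 0 lower (3.96%). With the interval alone and no fold, 7 were lower with TSA against senescent control (14.5%), 6 higher and 2 lower with TSA + phenamil against senescent control (15.9% and 15.8%), 1 lower with TSA + phenamil against TSA (17.4%), and 1 higher and 5 lower with TSA + phenamil against young control (16.5% and 15.3%). Scaling by total counts gave 1 member, Nid2, lower with TSA + phenamil against TSA. No paired analysis was possible because each condition has 1 library, and for the same reason no library could be left out. Depth limited Col15a1 and Col18a1 most, whose intervals were the widest among the members.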
